A study of Mus musculus with 2 samples.

Results

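Astrocytes of the mouse lateral hypothalamic area were picked from 2 droplet libraries by their own transcripts, as cells with at least 5 unique molecular identifiers (UMIs, 1 per captured transcript) of Gja1, Slc4a4, Agt, Ntsr2 and Aqp4 together. Such a cell also had 500 or more genes, at most 20% of its UMIs from mitochondrial genes, at most 3 UMIs of the neuronal genes Snap25 and Syt1 together, and at most 2 UMIs of the oligodendrocyte genes Mog, Mag and Opalin together. The rule found 326 astrocytes among 6906 kept cells of 7232 barcodes. They made up 128 of 3276 kept cells in the library labelled male (3.91%, exact 95% interval 3.27 to 4.63) and 198 of 3630 in the library labelled female (5.45%, 4.74 to 6.24). These intervals cover counting error only.

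Both libraries came from untreated C57BL/6 mice at postnatal day 30, all of them littermates, with no genotype given. The library labelled male pooled 3 animals and the library labelled female pooled 2. The area was dissected from slices 225 µm thick, and the cells were freed by trituration, filtered and loaded on a 10x Chromium system for 3' counting. Each label has 1 library, so animals cannot be told apart, and a share of cells here is a share of what survived dissociation.

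Astrocytes are the glial cells that take up glutamate and GABA after release, carry potassium and water through Kir4.1 and aquaporin-4, and form networks through connexin gap junctions. They supply neurons with glutamine, lactate and lipoprotein-borne cholesterol, and in the brain they are the main source of angiotensinogen, the product of Agt. Glial fibrillary acidic protein (Gfap), an intermediate filament, is known to be strong in astrocytes at the brain surface and in white matter and weak in many grey-matter astrocytes.

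The labels of both libraries were at odds with their sex-linked genes. In the library labelled male, Xist, the RNA of the inactive X chromosome, had 1015 UMIs in 127 of 128 astrocytes, and Y-linked genes had 0. In the library labelled female Xist had 0 UMIs and Y-linked genes had 182 UMIs in 114 of 198 astrocytes (57.6%). The libraries are therefore named by label throughout, and a direction between them is a direction between labels. In each pair of values the first belongs to the library labelled male. The libraries held 23151801 and 27437142 UMIs, and their astrocytes 334170 and 581652. There were 18 barcodes present in both libraries, of which 2 belonged to an astrocyte in one of them and 0 to astrocytes in both.

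Astrocytes were among the shallowest cells. Their median was 2266 and 2601 UMIs (1263 and 1414 genes), against 6164 and 6741 UMIs in the other kept cells. Oligodendrocyte precursor cells had 2364 and 2570 UMIs. They were taken as kept cells with 4 or more UMIs of Pdgfra, Cspg4, C1ql1 and Cacng4 together. They also had under 5 UMIs of the 5 genes that picked the astrocytes, and met the same neuron and oligodendrocyte limits. The mitochondrial share of astrocytes was high, with a median of 13.0% and 14.05% against 8.55% and 9.19% in the other kept cells. Without the mitochondrial limit 54 and 55 further cells passed, and at a limit of 10% with 1000 genes only 27 and 24 astrocytes were left.

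The label was checked on markers outside the rule. Each of the 326 cells held 5 or more UMIs of 32 further astrocyte markers. That count does not tell classes apart. Cells within the other limits but with 0 UMIs of the rule's 5 genes had a median of 11 and 15. All 32 markers were found in both libraries, with a median of 111 and 125.5 UMIs in an astrocyte. Their summed level was 43984 and 45206 CPM (a gene's UMIs summed over the cells of a class and scaled to a fixed total) in astrocytes, 7329 and 8435 in precursor cells, 3448 and 3670 in mature oligodendrocytes, and 2703 and 2706 in neurons. In both libraries the astrocytes stood above precursor cells, mature oligodendrocytes and neurons, the classes also shown in the plot of gene levels by class. Further classes of cells were not compared.

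Cells just inside and just outside the limit of 5 UMIs were few. Among cells within the other limits, 15 and 26 had 3 or 4 gate UMIs, with a median of 33 and 26 UMIs of the 32 outside markers, and 4 and 8 had 5 or 6, with a median of 45 and 72.5. At 0 gate UMIs the median was 11 and 15, in 402 and 367 cells. At 20 or more it was 130 and 147.5, in 49 and 104 cells. The neuron limit alone kept out of the astrocytes 31 and 40 cells that had 5 or more gate UMIs, and the oligodendrocyte limit alone 18 and 25. Such cells stayed among the other kept cells, so the levels of astrocyte genes given for the other kept cells include theirs.

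**Figure D1:**
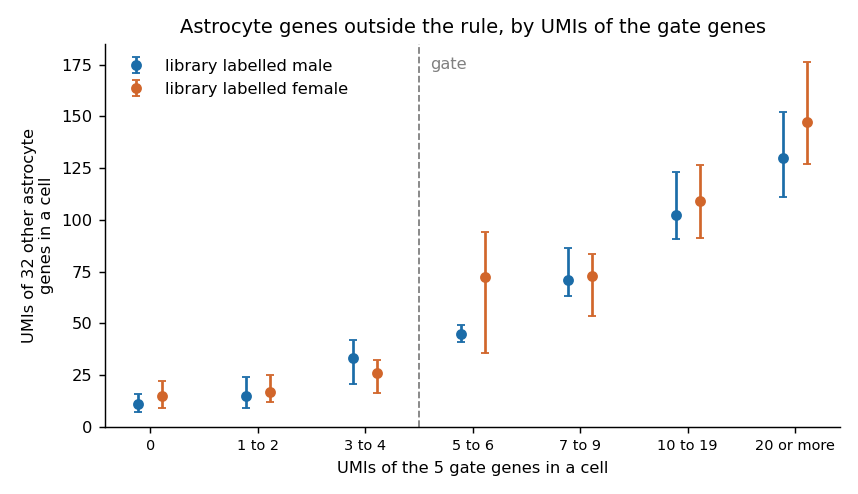
UMIs of 32 astrocyte genes outside the rule in a cell (vertical axis) by its UMIs of the 5 gate genes (horizontal axis, in bins), as the median with the 25th to 75th percentile for each library, among cells within the other limits of the rule. The medians climb from 11 and 15 in cells with 0 gate UMIs to 130 and 147.5 in cells with 20 or more.

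Transcripts of other cells were present in the astrocytes. The 10 neuron markers summed to 524 and 653 CPM, against 5143 and 5028 in neurons, and all 10 were found. The 10 mature oligodendrocyte markers summed to 4695 and 4486 CPM, against 112075 and 109162 in mature oligodendrocytes. All 10 microglia markers were found, at 380 and 306 CPM, with 5 or more UMIs in 4 and 8 cells. The 8 fibroblast markers summed to 497 and 547 CPM, with 5 or more UMIs in 7 and 7 cells. Lum was at 0 in the library labelled male. In mature oligodendrocytes the same markers summed to 11.5 and 13.2 CPM, and in neurons to 15.9 and 20.5. They reached 2322 and 2249 CPM in precursor cells, whose gate shares Pdgfra with this list. The 8 precursor markers summed to 757 and 481 CPM in astrocytes, with 5 or more UMIs in 9 and 6 cells. The 8 endothelial markers summed to 236 and 413 CPM, and the 8 mural markers to 177 and 334. Abcc9 and Acta2 were at 0 in the library labelled male. The 5 erythrocyte markers summed to 20.9 and 3820 CPM, with 1442 UMIs in 1 cell of the library labelled female. Against all other kept cells (tested further on), 7 of 8 fibroblast and 6 of 10 microglia markers were higher and 0 lower. Of 8 mural markers 4 were higher and 0 lower, and of 8 precursor markers 4 and 1. Of 7 mature oligodendrocyte markers 1 was higher and 6 lower, and of 8 neuron markers 0 and 8. Over all genes 18.5% were higher and 23% lower.

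Markers of the cells that line the third ventricle were present too. The 10 tanycyte markers summed to 120 and 141 CPM, with Crym at 0 in both libraries. Of the 10 ependymal markers 5 and 9 were found, at 153 and 279 CPM, in 42 and 72 of the astrocytes, with Ccdc153 and Tmem212 at 0 in the library labelled male. One astrocyte of the library labelled female held 63 of these UMIs. In the comparison with all other kept cells described further on, 5 of 10 tanycyte markers were higher and 0 lower (among them Rax, Dio2 and Col23a1), and of 5 ependymal markers tested 3 were higher and 2 lower (1 and 2 without the astrocytes that held other-class markers). Of 6 markers of dividing cells, Mki67, Top2a, Cdk1 and Ccnb1 were at 0 in both libraries. Some 15 and 25 astrocytes held 5 or more UMIs of a marker list of microglia, endothelial, mural, fibroblast, ependymal or oligodendrocyte precursor cells. Blood genes were not part of this count. Of all astrocytes 4 and 6 were among the 95 and 115 highest doublet scores of their library. These cells stayed in, as the rule keeps them, and values without them are given where they matter.

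The 5 gate genes chose the cells, so their values are a description. Gja1, the connexin of astrocyte gap junctions, was found in 97.7% and 98.0% of astrocytes, at 2044 and 1929 CPM, against 20.2 and 25.3 CPM in the other kept cells. Slc4a4, a sodium bicarbonate cotransporter, stood at 1329 and 1413 CPM against 19.3 and 24.2. Ntsr2, the low-affinity neurotensin receptor, stood at 1403 and 1415 CPM against 24.1 and 27.7. For each of these 3 genes both libraries of astrocytes stood far above both libraries of other cells.

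Agt, the precursor of the angiotensin peptides, had 1194 and 1104 CPM in astrocytes against 11.7 and 14.4 in the other kept cells. It was found in 88.3% and 87.9% of astrocytes, with 0 to 11 and 0 to 19 UMIs per cell. With every cell thinned to 1500 UMIs, 82.8% and 75.3% of astrocytes held an Agt UMI, against 0.799% and 1.20% of neurons and 1.43% and 2.36% of mature oligodendrocytes. Aqp4, the water channel of astrocyte endfeet, had 1041 and 1406 CPM against 11.0 and 14.6. It was found in 81.3% and 91.4% of astrocytes. On the exclusion side, Snap25 had 144 and 193 CPM in astrocytes against 1298 and 1226 in neurons.

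**Figure D2:**
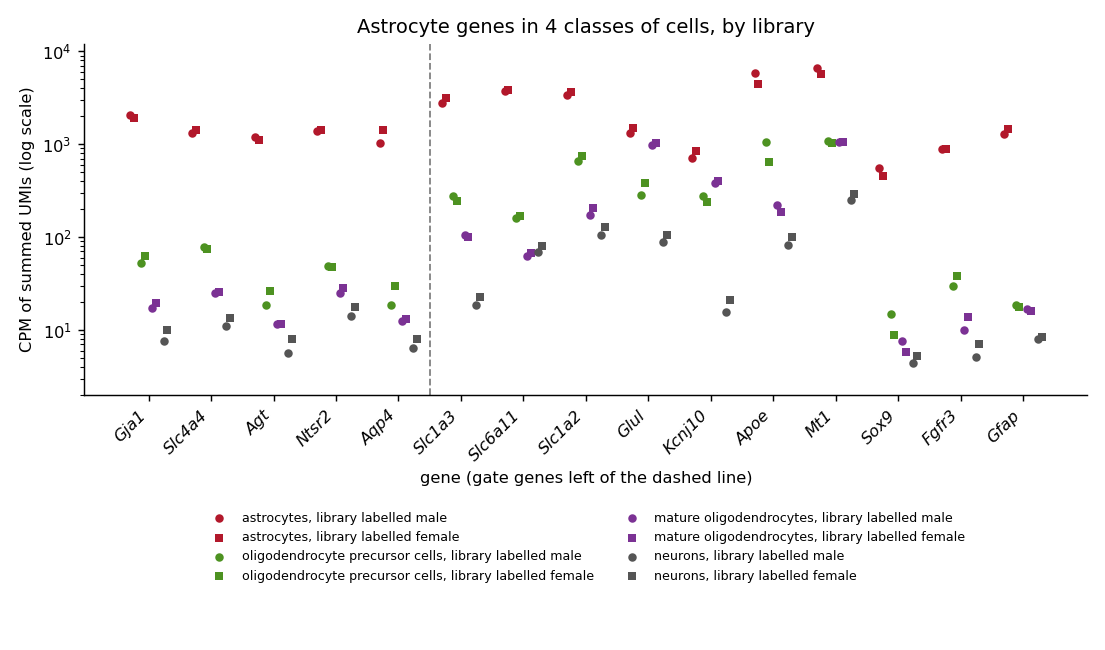
CPM of summed UMIs on a log axis for astrocyte genes in astrocytes, oligodendrocyte precursor cells, mature oligodendrocytes and neurons, 1 point per class and library. The gate genes stand left of the dashed line; Gja1 reaches 2044 and 1929 CPM in astrocytes.

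Astrocytes were next set against all other kept cells, on UMIs summed per library and tested with edgeR's quasi-likelihood test, library as a block, at a Benjamini-Hochberg adjusted p under 0.05. The 10 genes of the rule and its limits were left out. Genes that travel with the gate genes in the same cells were bound to differ, so folds and their standard errors (SE) describe size and precision only, and nothing is read from the number of calls. Of 14547 genes tested, 2693 were higher in astrocytes (18.5%) and 3346 lower (23%), 41.5% either way, with a median log2 fold change of -0.11. A call rests on 2 pools of animals and 1 residual degree of freedom, with the spread shared across genes.

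Myoc, which encodes the secreted protein myocilin, had the largest fold of the genes named by rank. It stood at 338 and 352 CPM in astrocytes and at 1.17 and 0.419 in the other cells, a log2 fold change of 8.93 ± 0.28 (SE). Atp13a4, a P5-type ATPase, followed with 180 and 199 CPM against 1.12 and 1.87 (7.09 ± 0.33). Gfap had 1275 and 1458 CPM against 12.2 and 10.8 (7.01 ± 0.11), and Slc7a10, the Asc-1 transporter of D-serine and glycine, 551 and 595 against 4.80 and 5.82 (6.85 ± 0.15). For each of the 4 genes both libraries of astrocytes stood far above both libraries of other cells. These levels are sums over cells, and few astrocytes carried Myoc. With every cell thinned to the depth used for Agt, 7.03% and 6.06% of astrocytes held a Myoc UMI. For Gfap these shares were 22.7% and 28.8%.

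The other genes of the leading 20 had log2 fold changes of 6.07 to 6.72. They were Sfrp5, a secreted Wnt antagonist, Entpd2, which breaks down extracellular ATP, Gli1, the effector of hedgehog signalling, Lcat, which esterifies cholesterol on lipoproteins, Phkg1, the catalytic subunit of phosphorylase kinase, and Slc39a12, a zinc transporter. With them stood Fgfr3 (892 and 887 CPM against 10.6 and 13.5), the connexin gene Gjb6 (799 and 691 against 10.4 and 12.2), the urea transporter Slc14a1, the NAD-consuming enzyme Cd38, the claudin Cldn10, the Notch modifier Lfng, the adenosine receptor Adora2b, and Eva1a, Gm266 and AI464131. The 5 lowest were Hapln2 (-5.41), Hook1, Pgr15l, 9530059O14Rik and Kcna1 (-4.57). Hapln2 is a link protein of myelinated nodes and Kcna1 an axonal potassium channel. By edgeR's quasi-likelihood test the highest adjusted p of these 25 genes was 4.52e-15.

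Uptake genes for glutamate and GABA were high. Of 15 genes of this list 12 were higher, 2 lower and 1 not past the threshold, with a median log2 fold change of 2.98. Slc1a2 (GLT-1; chromosome 2, 102658659 to 102790784, plus strand), the chief glutamate transporter of the forebrain, had 3423 and 3655 CPM against 143 and 172 in the other cells (4.60 ± 0.13). Slc1a3 (GLAST) had 2768 and 3127 CPM against 46.3 and 51.4 (6.02 ± 0.14), and the GABA transporter Slc6a11 (GAT-3) 3771 and 3877 against 87.5 and 98.1 (5.47 ± 0.13). Glul, glutamine synthetase, had 1323 and 1479 CPM against 252 and 264 (2.55 ± 0.08).

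The exceptions of that list were the aspartate aminotransferases. Got1 (cytosolic) had 29.9 and 56.7 CPM in astrocytes against 204 and 192 (-1.97 ± 0.19), and Got2 (mitochondrial) 32.9 and 68.8 against 196 and 197 (-1.74 ± 0.18). Aldh5a1, of GABA breakdown, had 68.8 and 77.4 against 72.1 and 73.2, not past the threshold. Set against the other cells with few neuronal UMIs (Snap25 and Syt1 at most 3) alone, 13 genes of the list were higher and 0 lower.

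Potassium, water and junction genes held 14 higher and 0 lower of 16 (median 4.01). Kcnj10, the Kir4.1 channel, had 706 and 839 CPM against 77.9 and 83.6 (3.37 ± 0.11). Mlc1, a membrane protein of astrocyte contacts, had 602 and 714 against 12.6 and 15.4 (5.66 ± 0.12). Clcn2 and Car2 were not past the threshold.

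Of 20 genes of lipid and cholesterol handling 19 were higher and 0 lower (median 2.75). Apoe, the main lipoprotein of the brain, had 5814 and 4477 CPM against 210 and 187 (4.79 ± 0.12). The lipid phosphatase Plpp3 and the acyl-CoA synthetase Acsbg1 had log2 fold changes of 5.51 and 5.41. Hmgcs1, of cholesterol synthesis, had 230 and 311 CPM against 307 and 304 and was not past the threshold.

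Glycolysis, lactate and glycogen genes were mixed, with 10 higher, 3 lower and 4 not past the threshold of 17 (median 1.96). The highest folds were those of 2 glycogen genes. Ppp1r3c, which targets a phosphatase to glycogen, had 147 and 124 CPM against 5.52 and 6.85 (4.53 ± 0.27), and Pygm, a glycogen phosphorylase, had the same log2 fold change of 4.53. Aldoc, the aldolase of astrocytes, had 1798 and 1757 CPM against 290.2 and 285 (2.74 ± 0.13), whereas Aldoa was lower (-0.39 ± 0.10), as were Pkm (-0.80) and Gpi1 (-0.51). Ldha had 65.8 and 80.8 CPM against 116 and 99.7, not past the threshold (adjusted p = 0.081). Against cells with few neuronal UMIs 11 genes of the list were higher and 0 lower.

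Receptors and hormone genes gave 14 higher, 4 lower and 8 not past the threshold of 26 (median 1.24). Ednrb, an endothelin receptor, had 814 and 860 CPM against 12.1 and 15.8 (6.01 ± 0.12), and S1pr1, a sphingosine phosphate receptor, 1050.4 and 853 against 17.0 and 25.6 (5.58 ± 0.12). Dio2, which makes active thyroid hormone, was low in level, at 5.98 and 17.2 CPM against 0.584 and 0.761 (4.27 ± 0.87). The oestrogen receptor Esr1 (-2.34), the glutamate receptor Grm5 (-2.03) and the thyroid receptor Thra (-0.66) were among the lower genes. Lepr, the leptin receptor, had 5.98 and 8.597 CPM against 6.02 and 5.10 and was not past the threshold.

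Of 12 other genes of the renin-angiotensin system 8 were tested, with 1 higher and 3 lower (median -0.71). Over all genes 18.5% were higher and 23% lower, and nothing is read from 8 genes. Atp6ap2, the prorenin receptor, had 108 and 82.5 CPM against 252 and 225 (-1.24 ± 0.16), and Mme, a peptidase, had a log2 fold change of -2.13. Against oligodendrocyte precursor cells, a comparison described further on, the direction of Atp6ap2 was the opposite. It stood at 63.9 and 32.5 CPM in precursor cells (1.32 ± 0.33 for astrocytes above them). Ace, the angiotensin-converting enzyme, had 1 and 0 UMIs in astrocytes (adjusted p = 5.0e-04 by edgeR's quasi-likelihood test). Anpep, an aminopeptidase, was higher, at 11.97 and 5.16 CPM against 0.673 and 0.837 (3.44 ± 1.04). That level in astrocytes rests on few UMIs. The receptor Agtr1a had 1 and 0 UMIs in astrocytes, and Agtr2 had 0 and 0 against 82 and 82 in the other cells, at least 1.03-fold lower and not past the threshold. A difference in receptors this low was not detectable at this depth.

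Secreted matrix and synapse factors held 18 higher and 1 lower of 21 (median 2.79). Sparcl1 (hevin) had 3824 and 4064 CPM (4.38 ± 0.12), Mfge8, a bridging protein of phagocytosis, 485 and 469 (5.13 ± 0.14), and Tnc, tenascin C, 17.95 and 29.2 (5.23 ± 0.67). Tnr, tenascin R, was the lower one, at 56.9 and 41.3 CPM against 92.8 and 101 (-0.94 ± 0.22).

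Of 25 glial transcription factors 24 were higher and 0 lower (median 2.91). Sox9, which directs astrocyte fate, had 551 and 456 CPM against 10.3 and 8.87 (5.82 ± 0.15). Hes5, a Notch target, had a log2 fold change of 5.62 and Dbx2 of 5.33. Regional factors were few: of 14, 10 were tested, with 5 higher and 2 lower (median 0.88). Irx5 had 50.9 and 24.1 CPM against 0.853 and 0.723 (5.58 ± 0.59), and Nkx6-2 407 and 272 against 75.3 and 72.5 (2.26 ± 0.13). The neuronal factor Otp (-1.49 ± 0.33) and the hypothalamic factor Nkx2-1 (-1.28 ± 0.43) were lower. Against cells with few neuronal UMIs the value of Otp was 0.079 (adjusted p = 0.92, edgeR).

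Signalling genes of the Notch, hedgehog, Wnt, BMP and FGF pathways held 25 higher and 0 lower of 30 (median 3.62). Beside Sfrp5, Gli1 and Fgfr3, these included the Wnt receptor Fzd2 (5.84), the BMP receptor Bmpr1b (5.82), the hedgehog effector Gli3 (5.65) and the hedgehog receptor Ptch1 (4.00).

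Genes often raised in reactive astrocytes held 15 higher and 0 lower of 19 tested (of 25 listed; median 2.22). C4b, complement component 4, had 156 and 129 CPM against 3.10 and 2.44 (5.79 ± 0.33), and Vim, vimentin, 95.8 and 112 against 15.3 and 14.99 (2.90 ± 0.25). Without the 15 and 25 astrocytes that held other-class markers, 9 of the 19 were higher and 0 lower. The part of those cells in the result was not tested.

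Immediate early and stress genes held 7 higher and 4 lower of 22 (median 0.35). Over all genes 18.5% were higher and 23% lower. Fos, induced by activity and by tissue handling, had 44.9 and 124 CPM in astrocytes against 80.4 and 65.1, so astrocytes stood below the other cells in the library labelled male and above them in the library labelled female (0.48 ± 0.19, adjusted p = 0.032 by edgeR's quasi-likelihood test). Without the astrocytes that held other-class markers 1 gene was higher and 11 lower, and the log2 fold change of Fos was -1.38. Over all 14377 genes tested in that setting, 2412 were higher and 3120 lower. The part of those cells was not tested.

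Metallothionein and redox genes held 11 higher and 1 lower of 15 (median 1.93). Mt1 had 6598 and 5711 CPM against 438 and 469 (3.87 ± 0.11), Mt2 a log2 fold change of 4.51 and Mt3 of 1.60. Sod1 was lower (-0.48 ± 0.16). All 13 mitochondrial transcripts were higher (median 0.79), for example mt-Co1 at 20178 and 20163 CPM against 12518 and 12669 (0.79 ± 0.07). The high mitochondrial share of the astrocytes moved with these. With the stricter cell filter of 1000 genes and 10% mitochondrial UMIs, which left 27 and 24 astrocytes and bounds the quantity compared, no transcript of the 13 passed the threshold in either direction.

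**Figure D3:**
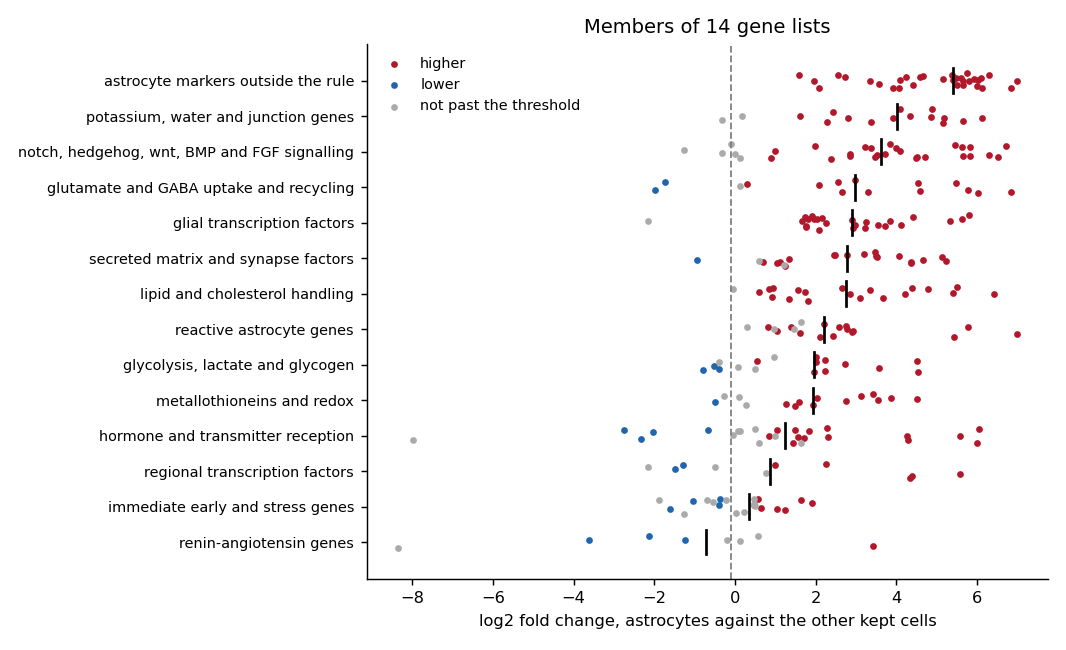
Log2 fold change of each tested member of 14 gene lists, astrocytes against the other kept cells, coloured by whether the gene was higher, lower or not past the threshold, with the median over all genes as a dashed line. The outside astrocyte markers centre on 5.40 and the renin-angiotensin genes on -0.71.

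Oligodendrocyte precursor cells are the other glia of similar depth, and a comparison with their 97 and 121 cells sets the astrocytes apart from a glial cell rather than from neurons. By the same test, 1134 of 6895 genes were higher in astrocytes (16.4%) and 956 lower (13.9%), 30.3% either way. As before, genes that go with either gate were bound to differ. The precursor gate held 7 and 14 cells with vascular or fibroblast UMIs. Its summed mural markers were 905 and 559 CPM against 177 and 334 in astrocytes, its endothelial markers 488 and 644 against 236 and 413, and its fibroblast markers without Pdgfra 819 and 872 against 377 and 505. Markers of newly formed oligodendrocytes summed to 4053 and 4297 CPM there, against 551 and 461 in astrocytes. Without the precursor cells that held vascular or fibroblast UMIs, a setting added after the data were seen, 1223 of 6479 genes were higher in astrocytes and 1037 lower. The part of the newly formed oligodendrocyte transcripts in the comparison was not tested.

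Several genes had no UMI in any precursor cell. Myoc had 113 and 205 UMIs in astrocytes and 0 and 0 in precursor cells, at least 70.0-fold higher. Few astrocytes carried Myoc, 7.03% and 6.06% of them at the thinned depth used for Agt. Fam20a, a pseudokinase of the secretory pathway, had 46 and 118 UMIs against 0 and 0 (at least 36.1-fold), and Sox1, a neural progenitor factor, 67 and 91 against 0 and 0 (at least 34.8-fold). Tlr3, a receptor for double-stranded RNA, B230323A14Rik, Igsf11 and Gpr179 were also at 0 in precursor cells, with bounds of 19.6, 18.9, 15.8 and 11.0. Itih3, a secreted hyaluronan-binding protein, had 1305 and 1224 CPM against 7.51 and 11.8 (7.23 ± 0.25).

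Among the 8 lowest genes was Top2a. It encodes a topoisomerase of replicating cells and had 0 and 0 UMIs in astrocytes against 28 and 44 in precursor cells, at least 36.4-fold lower. The genes 2810417H13Rik, Prc1 and S100a3 were likewise at 0 in astrocytes, with bounds of 22.2, 17.2 and 15.7. Cdkn2c, a cell-cycle inhibitor, had 0 and 1 UMIs against 35 and 39, a ratio of 112 with a counting interval from 19.5 upward. Ube2c, of mitotic exit, had 0 and 1 against 25 and 39, A930009A15Rik 0 and 1 against 22 and 36, and Megf11 2 and 0 against 46 and 58.

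Of the 32 outside markers 31 were higher than in precursor cells and 1 lower (median 3.48, against -0.0048 over all genes tested). The lower one was S100b, at 404 and 332 CPM against 635 and 689 (-0.57 ± 0.15). Slc1a2 stood at 654 and 748 CPM in precursor cells (2.63 ± 0.12 for astrocytes above them), Slc1a3 at 278 and 245 (3.79 ± 0.14) and Slc6a11 at 162 and 169 (4.83 ± 0.14). Gfap stood at 18.8 and 17.7 (6.50 ± 0.23) and Sox9 at 15.03 and 8.87 (5.68 ± 0.30).

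By function, glutamate and GABA genes were higher in 13 of 15 with 0 lower, potassium, water and junction genes in 15 of 15, glycolysis and glycogen genes in 12 of 13 with 0 lower, and lipid genes in 16 of 19 with 0 lower. By DESeq2's Wald test 6 of the 13 glycolysis and glycogen genes were higher. Aldoa, Pkm and Gpi1, lower than in the mixed other cells, were higher than in precursor cells. Got1 and Got2 were not past the threshold. Matrix genes differed in both directions, 11 higher and 3 lower of 15: Sparcl1 had 289 and 396 CPM in precursor cells (3.82 ± 0.13), whereas Tnr had 815 and 907 there (-3.89 ± 0.20) and Vcan, versican, 319 and 414 (-3.50 ± 0.29).

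Some glial genes were shared. Fabp7, a fatty-acid binding protein of glial progenitors, had 499.7 and 464 CPM in astrocytes against 672 and 647 in precursor cells, and Notch1 156 and 107 against 109 and 145. Neither was past the threshold. Vim was higher by a log2 fold change of 0.82 ± 0.29, and the value was -0.015 without the astrocytes that held other-class markers. Of 16 immediate early and stress genes 2 were higher and 7 lower (median -0.82). The level in precursor cells differed between the libraries, with Jun at 909 and 163 CPM there and 117 and 113 in astrocytes, and Fos at 545 and 91.6 there and 44.9 and 124 in astrocytes. For Fos the 2 groups therefore overlapped.

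Within the astrocytes, the Fano factor, the variance over the mean of a gene's counts at 1500 UMIs, was taken for the genes with a mean of 0.2 or more in both libraries. Ranked by the lower of their values in the libraries, Ptgds, Malat1, Gfap and Myoc stood first. The Fano factor was 25.3 and 18.4 for Gfap and 8.72 and 8.69 for Myoc, against a median of 1.08 and 1.08 over 927 genes. It was 38.6 and 41.9 for Malat1, a nuclear noncoding RNA. For Ptgds, prostaglandin D synthase, it was 115 and 105, but 82.7% and 49.3% of the UMIs of Ptgds lay in 1 cell of each library. For Pmch, a neuropeptide precursor, it was 44.0 in the library labelled male and 2.06 in the other. The gate genes varied little, with 1.39 and 1.31 for Gja1 and 1.41 and 1.29 for Agt.

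Gfap was found in a minority of astrocytes. At 1500 UMIs, 29 of 128 and 57 of 198 cells held 1 or more UMIs of Gfap, which is 22.7% (exact interval 15.7 to 30.9) and 28.8% (22.6 to 35.6). Of neurons, which should lack it, 1.68% and 1.41% held a Gfap UMI at the same depth, and of mature oligodendrocytes 1.75% and 2.83%. Unthinned, 27.3% and 34.8% of astrocytes held one. Gfap lies on chromosome 11 at 102887336 to 102900912 (minus strand) and Myoc on chromosome 1 at 162639155 to 162649693 (plus strand). The 250 bases before the RefSeq start of each (GRCm38.p6) are shown because these are the genes that split the astrocytes, with a TATAAA match in capitals. The Gfap window is chr11:102897201-102897450, inside the annotated gene, since a longer transcript starts upstream. The Myoc window is chr1:162638900-162639149.
Gfap: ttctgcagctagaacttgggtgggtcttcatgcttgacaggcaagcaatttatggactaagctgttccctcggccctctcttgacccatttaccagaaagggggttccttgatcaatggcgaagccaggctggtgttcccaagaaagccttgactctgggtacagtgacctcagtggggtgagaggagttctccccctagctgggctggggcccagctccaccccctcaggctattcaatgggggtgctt
Myoc: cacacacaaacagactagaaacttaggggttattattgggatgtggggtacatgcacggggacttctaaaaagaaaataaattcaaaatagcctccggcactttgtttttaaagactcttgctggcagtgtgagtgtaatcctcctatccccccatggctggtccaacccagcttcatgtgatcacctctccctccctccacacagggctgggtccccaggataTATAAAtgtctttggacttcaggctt

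Searched on both strands, the Myoc window held 1 TATAAA, starting 26 bases before the start, and the Gfap window held none. TATAAA was found in 12.3% of 32536 promoter windows of this length. The nuclear factor I core TTGGCA (12.3% of windows), its palindrome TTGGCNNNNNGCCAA (0.0369%) and the AP-1 site TGANTCA (6.73%) were in neither window. A match is a description of letters and names no factor.

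Astrocytes with a Gfap UMI were set against those without, both at 1500 UMIs, with Gfap and the genes of the rule left out. Of 2092 genes tested 32 were higher in the cells with Gfap (1.53%) and 4 lower (0.191%), 1.72% either way, by edgeR's quasi-likelihood test. With DESeq2's size factors these were 42 and 15. By DESeq2's Wald test they were 6 (Myoc, Slc38a1, C4b, S100a6, Nnat and Cpe) and 1 (Malat1).

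Myoc was nearly confined to the cells with Gfap, with 57 and 76 UMIs there and 1 and 0 in the others, a ratio of 371 with a counting interval from 65.5 upward (log2 fold change 8.09 ± 0.45, adjusted p = 8.9e-10 by edgeR's quasi-likelihood test). The amino acid transporter Slc38a1 had 25 and 30 UMIs against 7 and 7 (3.44 ± 0.35), and C4b 22 and 29 against 6 and 9 (3.21 ± 0.36). Sema3b, a secreted semaphorin, had 6 and 10 UMIs against 0 and 0, at least 14.9-fold higher. Padi2, a deiminase of arginine residues, had 10 and 17 against 1 and 3 (4.09 ± 0.62), and the hyaluronan receptor Cd44 4 and 10 against 1 and 1, a ratio of 19.5. These 6 genes were named only where both libraries went the same way.

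The 4 lower genes were of another kind. Malat1 had 49816 and 57836 CPM in cells with Gfap against 90808 and 80109 (-0.70 ± 0.10), and the noncoding RNA Gm3764 1057 and 1228 against 1980 and 1702 (-0.69 ± 0.17). Igfbp2, a binding protein of insulin-like growth factors, had 0 and 0 UMIs against 15 and 37, at least 6.21-fold lower, but 80% and 54.1% of those UMIs lay in 1 cell of each library. Ptgds had 23.0 and 269 CPM against 1125 and 1598 (-3.05 ± 0.31). Without the astrocytes that held other-class markers its log2 fold change was -0.18 (adjusted p = 0.92, edgeR), and the fibroblast markers stood at 46.0 and 93.6 CPM in cells with Gfap against 377 and 402 in those without.

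Of all genes tested only 1.72% passed, so few calls among general astrocyte genes are no result about them. Of 31 outside markers tested 1 was higher, Mlc1 (1.09 ± 0.19), the median log2 fold change was -0.02, and 7 had an unadjusted p under 0.05 in edgeR's test. Over all 2092 genes 250 had one, and of 18 lipid genes 8, of which 2 were called higher and 1 lower. Of 12 glutamate and GABA genes 0 were called by edgeR and 0 by DESeq2, and 0 had an unadjusted p under 0.05, among the 12 Slc1a2 (0.06), Slc1a3 (0.14) and Glul (-0.34). Apoe (0.10), Sox9 (-0.31), Aldh1l1 (0.59), Kcnj10 (0.25) and Gjb6 (-0.33) were not past the threshold either, nor was Vim, at 1.86 (adjusted p = 0.14, edgeR). A missed call does not show equal levels.

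The cells with Gfap fell into 2 kinds, seen after the test and given as a description. In 8 and 12 cells that also held Myoc, Gfap had 9 to 49 and 11 to 37 UMIs, with a median of 26.5 and 19. In the other 21 and 45 cells Gfap had 1 to 2 and 1 to 3 UMIs. No cell with Gfap lay between these ranges. The cells with both genes had a median of 2830.0 and 3487 UMIs before thinning, against 2235 and 2549 in the cells with Gfap alone and 2249 and 2540.0 in those without, and 1 and 1 of them held other-class markers.

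Several of the called genes stood apart in the cells with both Gfap and Myoc alone. Slc38a1 had 2000.0 and 1667 CPM there, 31.7 and 0 in cells with Gfap alone, and 47.1 and 33.1 in cells without. S100a6, a calcium-binding protein, had 1417 and 2222 CPM, then 95.2 and 148, then 101 and 70.9, and Igfbp5 1583 and 1667, then 127 and 178, then 94.3 and 85.1. Dbi, the acyl-CoA binding protein, had 5167 and 5722 CPM, then 1651 and 1852, then 1838 and 1400. Sema3b had 0 UMIs in the cells with Gfap alone and in those without Gfap.

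Other genes went in steps over the 3 kinds of cell. C4b had 1333 and 889 CPM in cells with both genes, 190 and 193 with Gfap alone, and 40.4 and 42.6 without Gfap. Cpe, carboxypeptidase E, had 5833 and 3889 CPM, then 3111 and 3393, then 1495 and 1783. Malat1 ran the other way, at 17583 and 19444 CPM, then 62095 and 68074, then 90808 and 80109. Among the gate genes Aqp4 had 2667 and 3056 CPM, then 1143 and 1511, then 976 and 1163, whereas Gja1 had 2083 and 1722, then 2190 and 2030, then 2027 and 1962.

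**Figure D4:**
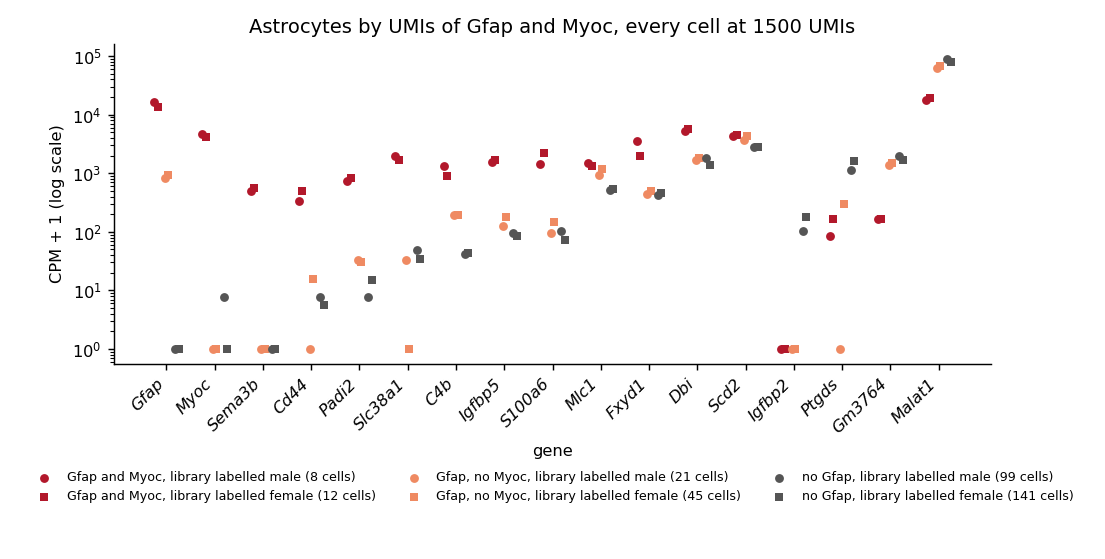
CPM + 1 on a log axis for named genes in astrocytes with Gfap and Myoc, with Gfap alone and without Gfap, every cell at 1500 UMIs, 1 point per kind of cell and library. Gfap stands at 16583 and 13722 CPM in the cells with both genes and at 825 and 933 in the cells with Gfap alone, and Malat1 falls to 17583 and 19444 in the cells with both genes.

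With the cells that held Myoc left out, a setting added after these values were seen, 3 genes were higher with Gfap and 2 lower. The genes higher were C4b (2.13 ± 0.44, adjusted p = 0.018), Mlc1 (adjusted p = 0.020) and Cpe (0.94 ± 0.15, adjusted p = 9.5e-04), all by edgeR. The genes lower were Ptgds (-2.92) and Igfbp2.

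The astrocytes of the 2 libraries were close to each other, with 1 library per label and hence no test. Among 3279 genes with 50 or more UMIs, 36 were at least 2-fold higher in the library labelled female (1.1%) and 29 in the library labelled male (0.884%), 1.98% either way, with a median log2 difference of 0.01. None of the 5 gate genes and 32 outside markers was among them, which at a share of 1.98% is no result about these genes.

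The largest differences lay in sex-linked genes, in blood genes and in genes that 1 cell carried. Xist had 1015 and 0 UMIs, Ddx3y 0 and 88 and Eif2s3y 0 and 56. Haemoglobin genes were higher in the library labelled female, with Hba-a1 at 1 and 749 UMIs, Hba-a2 at 2 and 620 and Hbb-bs at 4 and 799, of which 73.1% lay in 1 cell. In the library labelled male Nov had 63 and 1 UMIs, Mgp 131 and 8, Cldn11 63 and 14 and Thbd 49 and 11, with 87.3% to 100% of the UMIs of each in 1 cell. That library also held the deepest astrocyte, at 21416 UMIs, against 9476 for the deepest in the other. Pmch, the precursor of the neuronal peptide melanin-concentrating hormone, stood at 1101 and 392 CPM, with 40.2% of its UMIs in 1 cell of the library labelled male.

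**Figure D5:**
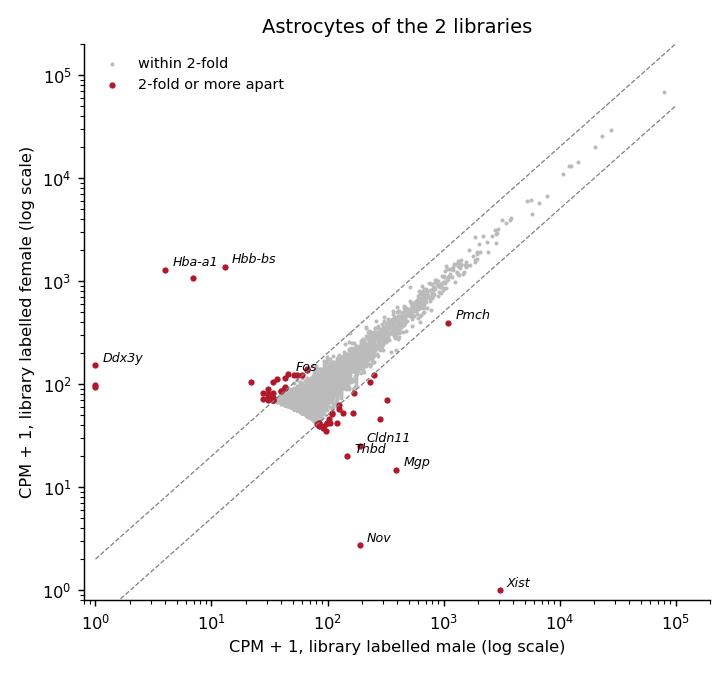
CPM + 1 in the astrocytes of the library labelled male (horizontal log axis) and of the library labelled female (vertical log axis), 1 point per gene with 50 or more UMIs and dashed lines at 2-fold. The 65 genes at 2-fold or more apart are in red and the rest lie between the lines, with Xist and the Y-linked genes at opposite edges.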

How the data were processed

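For each library the authors deposited raw UMI counts by gene and barcode as a sparse matrix. Per the submitters' processing notes they were made with Cell Ranger 2.2.0 on GRCm38/mm10. Which annotation release and strand setting they used is not given in the sources used here. Gene positions came from a GENCODE annotation of GRCm38, which held 28339 of 28692 gene identifiers (98.8%), and promoter sequences from RefSeq (GRCm38.p6).

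The members and the gene lists were chosen with earlier results of these data known. The cell filter removed 163 barcodes of either library. Scrublet (scanpy 1.11.5) scored doublets per library, and the highest scores, 0.8% per 1000 barcodes, were marked and kept, as the rule does. Its own threshold called 54 and 11 barcodes (1 and 0 astrocytes). Mature oligodendrocytes had 5 or more UMIs of Mog, Mag and Opalin and at most 3 of Snap25 and Syt1. Neurons had 10 or more UMIs of Snap25 and Syt1 and at most 2 of Mog, Mag and Opalin. Both classes, like the precursor cells, had under 5 UMIs of the astrocyte gate genes. Counts were summed per library and group and tested with edgeR 4.0.16 (R 4.3.3; filterByExpr, TMM, quasi-likelihood, 2-sided) with the library as a block. SE is the absolute log2 fold change over the square root of F. The biological coefficient of variation was 6.91% against the other cells, 11.3% against precursor cells and 8.42% for Gfap. For Gfap, every cell was thinned to 1500 UMIs (seed 1), and no astrocyte was shallower. Intervals are exact at 95%: Clopper-Pearson for shares, Poisson for counts. A fold against 0 UMIs is a bound at 3 counts over the group.

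Genes were named by rank among those called, in the same direction in both libraries, with 50 CPM or more in the higher group: 20 highest and 5 lowest against the other cells, 8 each way against precursor cells, 6 each way for Gfap and 5 each way between libraries. From each list, up to 4 called members at 10 CPM or more and the defining genes were named. Other list members that are named illustrate a direction or a missed call and were chosen after their values were seen. Between libraries, genes with 50 or more UMIs were compared at 2-fold.

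On simulated sums with 50 genes changed at each fold, 52%, 72% and 84% were called at 2-fold, 4-fold and 8-fold against the other cells (14216 genes), 44%, 92% and 100% against precursor cells (6224 genes), and 26%, 90% and 96% for Gfap (1884 genes). Unchanged genes called numbered 5, 9 and 3. Alternatives were another normalization, DESeq2 1.42.0, no block, no low-count filter, stricter cells, other gates, thinning and each library left out. The replicate numbers of the labels name the libraries and pair nothing. The groups compared come from the same libraries. Some genes of the lists are not reported here by name.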

Additional observations from a re-analysis of the deposited data

Results flagged for a closer look

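For 4 listed or named genes with 50 or more UMIs in the astrocytes and a log2 difference of 0.5 or more each way, the astrocytes of the 2 libraries lay on opposite sides of the other kept cells, and the difference between the libraries was not tested, since each label has 1 library. Fos, the immediate early gene, had a log2 difference from the other cells of -0.795 in the library labelled male and 0.936 in the library labelled female. Hba-a1 and Hba-a2, the alpha chains of haemoglobin, had -6.79 and 0.820, and -5.68 and 0.911. Flt1, an endothelial receptor, had -0.772 and 0.619. In the astrocytes of the library labelled male, the 14 UMIs of Flt1 lay in 1 cell.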

How the results depend on the processing

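Counts are given as genes higher and lower. Against the other kept cells, where 2693 were higher and 3346 lower, DESeq2's Wald test gave 1797 lower, other cells with few neuronal UMIs 2130 lower, thinning 2094 lower, and the strict cell filter 755 and 1565. Against precursor cells, where 1134 were higher and 956 lower, DESeq2 gave 375 and 206, the strict filter 346 and 219, and thinning 607 lower. For Gfap, where 32 were higher and 4 lower, DESeq2 gave 6 and 1, DESeq2's size factors 15 lower, astrocytes without other-class markers 13 lower, full depth 60 and 24, no low-count filter 20 and 7, no Myoc cells 3 and 2, another seed 12 lower, and a split at 2 Gfap UMIs 50 and 23. Without the replicate block the counts were 2776 and 3343, 1025 and 832, and 27 and 3. The astrocyte share was 1.28% and 1.16% under the strict filter and 5.31% and 6.72% with no mitochondrial limit. Genes 2-fold higher in the library labelled female were 5 at 100 UMIs, 14 thinned and 16 without other-class cells, and in the library labelled male 8, 3 and 10. The causes were not tested.

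These log2 fold changes turned sign. Against the other cells: Fos -1.38, Hspa1a -1.53 and Zfp36 -0.0624 without other-class cells, Fos -0.80 and Hspa1a -0.45 at a gate of 10 UMIs, Fos -0.018, Otp 0.079 and Zfp36 -0.39 against cells with few neuronal UMIs, Fos -0.11 thinned, and Fos from -0.79 to 0.94 with either library left out. Against precursor cells: Vim -0.015 without other-class cells and Fos from -3.56 to 0.42 with either library left out. For Gfap, all among genes not past the threshold: Apoe -0.0041 without other-class cells, -0.031 with no low-count filter and -0.051 at the split at 2, Sox9 0.33 at full depth, Aldh1l1 -0.32 without Myoc cells, Slc1a2 -0.0626 with no low-count filter, -0.37 at the split at 2 and from -0.29 to 0.42 with either library left out, and Slc1a3 -0.10 with another seed and -0.39 at the split at 2. With 1 library left out a value has no test. Depth limits the low genes: a level under 3 UMIs over a group could not be measured closely, even where a difference from the other group was called.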
